A study of Callithrix jacchus and Rattus norvegicus and Loxodonta africana with 31 samples.

Results

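The genes described here are named as proteins of the mitochondrial ribosome. They are all genes in the deposited expression tables with the symbol MRPL or MRPS, a number and, in some, a letter A to C. The rat table held 78 such genes of 20486, with 49 MRPL and 29 MRPS names. Its 78 entries carry 76 symbols, because MRPL30 and MRPL36 each appear under 2 gene identifiers; these are possible near-identical copies, so their values are uncertain. The wallaby table held 60 of 13892 genes (38 MRPL and 22 MRPS), and 12 of 19681 genes had such a name in the marmoset (6 and 6), 150 entries of 54059 in all. A further 41 marmoset genes carry such a symbol only in the Ensembl name table and not in the deposited one; they are kept apart and are named as further genes where they are used. All members lay on autosomes in the deposited tables, and no member was listed at 0 in any column used.

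Mitochondria keep their own small genome, which in mammals encodes only core subunits of the respiratory chain and of ATP synthase, together with the RNAs needed to make them. Those subunits are translated inside the organelle by a ribosome of bacterial ancestry, whose RNAs are mitochondrial and whose proteins are all nuclear-encoded and imported. Proteins named MRPL belong mostly to its large subunit, where peptide bonds form, and proteins named MRPS to its small subunit, which reads the messenger RNA; some descend from bacterial ribosomal proteins and others have no bacterial counterpart. In muscle and other respiring tissues the product of this ribosome is needed in large amounts.

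The series holds RNA-seq of the polyadenylated RNA of common marmoset, rat and tammar wallaby tissues, made for a study of Y chromosome genes in mammals; elephant fibroblast samples were not analysed here. Marmoset and rat gave brain (frontal cortex and cerebellum), heart, kidney and liver of a male and a female, and a testis and an ovary. The wallaby gave liver and testis of 1 male. No sample carried a treatment or an engineered allele, and the labels used here give no strain or age. Each sex is 1 animal in the marmoset and rat somatic tissues, so sex and animal cannot be told apart. The labels give 3 marmoset testis samples from 2 males; the testis column fits all 3 by its name and was taken as the authors' pooled value, with no spread. The deposited brain columns are named only brain: 4 brain samples stand against 2 columns in each species, so a column may hold either region or both. Values are FPKM, a count of fragments corrected for transcript length and for the size of the library, which the authors normalized over tissues; the depth of each sample is unknown, because no read counts were used here.

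Tissue identity was checked with marker lists. In marmoset and rat the summed FPKM of brain, heart, kidney and liver markers was highest in the labelled tissue, and both brain columns held cortex and cerebellum markers. The rat cerebellum list summed to 718 in the male brain column and 121 in the female, with 27.0 and 33.9 for the cortex list. In the male marmoset MYH7 was listed at 0 in heart, and FGB and SERPINA1 in liver, which can be failed estimates. Rat testis markers summed to 17300 in testis and at most 13.4 elsewhere, but only 2 of 9 were found in the marmoset table. Marmoset ovary markers summed to 109 in ovary and 67.5 in female liver. In wallaby the liver list summed to 118464 in liver and 109 in testis, and the testis list to 82489 in testis and 93.4 in liver. The heart list summed to 565 in wallaby liver and 16.8 in testis, and its part in the wallaby values was not tested. The FPKM totals differed between rat columns, at 3551200 and 3292150 in male and female heart against 578394 and 774373 in brain. Transcripts of the mitochondrial genome took a large part of them: its 13 genes held 78.3% and 82.1% of the male and female heart columns, 64.4% and 73.0% of brain, 53.0% and 54.2% of kidney, 38.4% and 47.2% of liver, 17.2% of testis and 40.6% of ovary. Of these genes 4 were listed at 0 in both heart columns and male kidney, and 3 in female kidney, which can be failed estimates, so those shares may be too low. The 9 genes above 0 in every column held 21.8% and 23.6% of brain and 10.8% and 14.1% of liver. Dividing each column by its total therefore lowers nuclear genes in rat heart relative to brain, and directions that turn under that scaling are given beside the results.

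Every member was above 0 in every column used, at levels that spread widely among members. In rat brain the members ranged from 0.755 to 51.8 FPKM in the male (median 12.1) and from 1.43 to 48.5 in the female (10.9). Rat heart had medians of 51.0 and 43.5 and the top value of 469, MRPS36 in the female. Medians in rat liver were 46.0 and 34.7, so male liver lay between the heart columns, and in kidney 34.8 and 21.9. Testis (12.1) and ovary (17.4) sat close to or just above the brain columns. Over the 10 rat columns MRPS36 had the highest mean level (140 FPKM), ahead of MRPS16 (124), MRPL33 (115), MRPL12 (104) and MRPL34 (103). MRPS36 is also known as KGD4, a part of the 2-oxoglutarate dehydrogenase complex of the citric acid cycle. Its name alone therefore does not make it a protein of the ribosome, and it is counted in the sums and shares by its name. The lowest mean levels belonged to MRPS28 (2.01), the MRPL30 copy ENSRNOG00000018511 (3.27), MRPS5 (7.35), MRPL47 (7.88) and MRPS31 (12.0).

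Among the 12 marmoset members the mean level was highest for MRPL37 (89.5 FPKM), MRPL12 (74.4), MRPL4 (47.6), MRPS25 (43.0) and MRPL28 (31.9). It was lowest for MRPS9 (9.16), MRPS27 (12.1), MRPS30 (13.2), MRPL38 (20.2) and MRPS5 (22.7). Male and female column medians were 16.1 and 14.3 in brain, 38.1 and 33.6 in heart, 25.5 and 13.2 in kidney and 32.2 and 23.0 in liver, with 30.7 in testis and 9.92 in ovary. The wallaby median was 71.2 in liver and 17.8 in testis. A few wallaby genes stood far above the rest: MRPL52, a large-subunit protein with no bacterial counterpart, had 1613 FPKM in liver, MRPL34 had 1497 in liver, and MRPS12, the counterpart of a bacterial decoding-centre protein, had 2167 in testis.

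**Figure D1:**
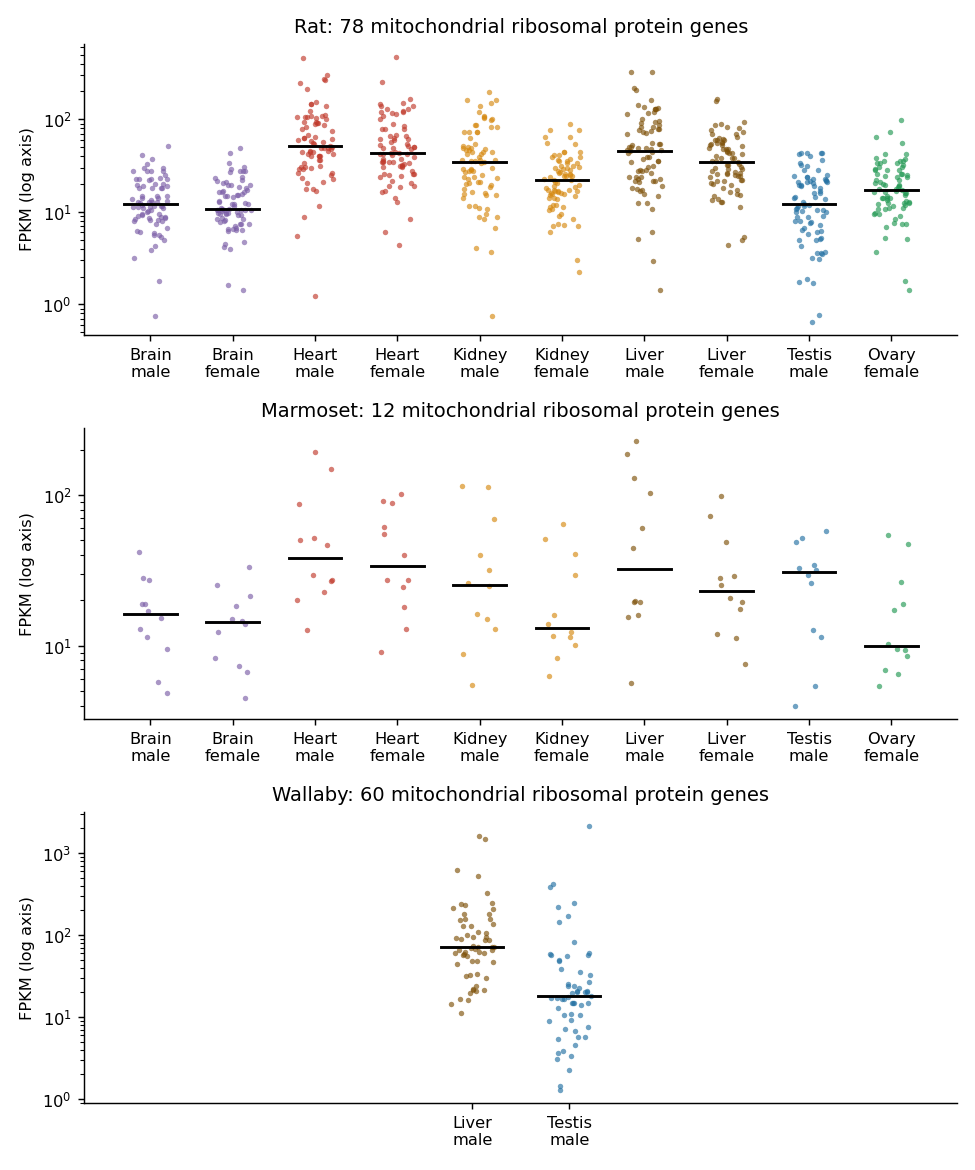
FPKM of each mitochondrial ribosomal protein gene (points, log axis) in each deposited column of rat (78 genes), marmoset (12) and wallaby (60), with the column median as a black bar. In the FPKM as deposited, the rat medians are lowest in brain and testis (10.9 to 12.1) and highest in male heart (51.0), male liver (46.0) and female heart (43.5); the scaling used decides this order, as given in the text.

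Summed over the 78 rat members, the deposited FPKM was 1154 and 1103 in male and female brain, 6010 and 5017 in heart, 3685 and 2024 in kidney and 5028 and 3260 in liver. Testis had 1219 and ovary 1694. Nuclear-encoded subunits of oxidative phosphorylation were 17.7 and 17.2 times the sum of the members in male and female rat heart. In the other rat columns this ratio lay between 5.30 (ovary) and 10.9 (male kidney). The ratio is free of the scaling of a column, and in rat it was highest in both heart columns. Against the 12 marmoset members the ratio was 85.1 and 31.6 in male and female heart and 34.5 and 17.5 in kidney. It was 24.8 and 17.4 in liver and 19.5 and 13.9 in brain, so male kidney lay above female heart. Against the 53 genes with the further ones the ratio was 15.8 and 8.77 in heart and 6.41 and 4.25 in kidney. There it was 4.07 and 3.74 in liver and 4.51 and 3.96 in brain. The ratio of cytosolic ribosomal proteins to members in rat was highest in ovary (27.3). Large-subunit names outweighed small-subunit names by 1.54 to 1.92 times over the rat columns.

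Each somatic tissue of a species was compared with the mean of the other 3 on the log2(FPKM + 1) scale, with the animal as a block. A gene passed with a Benjamini-Hochberg adjusted p under 0.05 in limma, over all 14560 rat or 15100 marmoset genes tested, and a log2 change of at least 1. All 78 rat and all 12 marmoset members were tested. Counts at an unadjusted p are given for members only, so they cannot be set against a share of all genes. With 2 columns a tissue, the p-values measure how the difference between 1 male and 1 female varied from tissue to tissue. The block removes the part of that difference shared by the tissues. In whole tissue fewer cells of a type and less RNA per cell cannot be told apart.

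Rat brain was the tissue where members stood lowest in the deposited FPKM. Of 78 members 66 fell and none rose, against 27.1% of all genes lower and 17.6% higher; after division by column totals 7 were lower (10.5% of all genes) and 2 higher (41.6%), and the member median moved from -1.46 to -0.08. The median of all genes was -0.28. The member median minus that of all genes was -1.18 as deposited and -0.85 after that division. At an unadjusted p under 0.05, 75 members were lower and 0 higher; at the adjusted p alone 74 were lower (39.1% of all genes) and 0 higher (24.6%). Both brain columns lay below all 6 other somatic columns for 67 of 78 members, against 22.4% of all genes.

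MRPS16, a small-subunit counterpart of a bacterial protein, had 22.8 and 19.6 FPKM in male and female rat brain, 247 and 151 in heart, 163 and 64.9 in kidney and 325 and 168 in liver. Its log2 change in brain was -2.93 ± 0.27 (SE; limma adjusted p = 0.000142). The brain and other somatic columns did not overlap, and the male exceeded the female in every somatic tissue. MRPL52 had 11.1 and 9.36 FPKM in brain and 30.8 to 327 in the other somatic columns, a log2 change of -2.85 ± 0.32 (adjusted p = 0.00037). MRPL12, a counterpart of the bacterial stalk protein that also binds the mitochondrial RNA polymerase, had 19.1 and 16.8 in brain and 44.6 to 304 elsewhere (-2.81 ± 0.35, adjusted p = 0.000537). These genes were thus lower in brain by more than any spread between the sexes. MRPL34 (-2.64 ± 0.35, adjusted p = 0.0007), MRPS12 (-2.58 ± 0.30, adjusted p = 0.000411) and MRPL14 (-2.46 ± 0.26, adjusted p = 0.000271) complete the 6 largest changes. All 6 passed under the alternatives that keep a shift shared by the set, division by column totals included. With columns centred on the median member, a setting described below, MRPS12 and MRPL14 did not pass.

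By role, 29 of 31 large-subunit entries with a bacterial counterpart fell in rat brain (median log2 change -1.56), and 14 of 18 mitochondria-specific large-subunit genes (-1.31). In the small subunit 11 of 14 with a bacterial counterpart fell (-1.39), and 8 of 11 genes listed as mitochondria-specific (-1.14). Roles follow the lists used here, which place MRPS24 and MRPS28 among those 11, and this placement was not checked. The difference between roles was not tested. A few members stayed near the level of the other tissues. MRPS2, a small-subunit counterpart of a bacterial protein, had 12.7 and 12.2 FPKM in brain and 10.8 to 19.2 in the other somatic columns, so its groups overlapped (-0.18, adjusted p = 0.55). MRPL49 had 27.6 and 29.4 in brain, within its range of 23.7 to 79.4 elsewhere (-0.35, adjusted p = 0.175). MRPS5 (-0.48, adjusted p = 0.153) and MRPL48 (-0.55, adjusted p = 0.0523) did not pass in limma either, and MRPL51 (-0.59, adjusted p = 0.021) missed the fold minimum. MRPS2, MRPL49 and MRPS5 were chosen here as the members nearest to 0, after their values were seen.

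In rat heart 44 of 78 members rose and none fell, against 16.7% of all genes higher, but after division by column totals 1 was higher (3.96% of all genes) and 16 lower (54.4%), and the member median turned from 1.06 to -0.53. The median of all genes was -0.11, so members lay 1.17 above it, and 0.56 above it after that division. At an unadjusted p under 0.05, 60 members were higher and 0 lower; at the adjusted p alone 58 were higher (25.0% of all genes) and 0 lower (30.4%). Both heart columns exceeded all 6 other somatic columns for 29 of 78 members, against 16.2% of all genes. None fell by the fold rule (17.3% of all genes did). With the brain columns left out of the comparison, 21 members were higher (17.8% of all genes) and 1 lower (20.1%). The blood and immune list (4 of 7 genes found) summed to 3302 and 2747 FPKM in male and female rat heart and to 183 to 704 in the other somatic columns, nearly all from HBB, a haemoglobin chain; its part in the result was not tested. Without the female heart column 27 members passed, and without the male 29, on the assumption that the lone heart column varies like the other tissues.

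MRPS36 led in rat heart. It had 461 and 469 FPKM in male and female heart, 27.6 and 33.5 in brain, 121 and 77.0 in kidney and 78.5 and 47.3 in liver, with 43.7 in testis and 42.6 in ovary. Both heart columns lay above all others, and the log2 change was 3.02 ± 0.27 (limma adjusted p = 0.000236). MRPS36 kept its call under every alternative run. As a share of the summed FPKM of all members, which is free of column scaling, it held 7.68% and 9.35% in heart and 1.56% and 1.45% in liver. MRPL45, a mitochondria-specific protein near the exit tunnel that helps to anchor the ribosome to the inner membrane, had 85.9 and 89.6 FPKM in heart and 12.8 to 22.5 in the other somatic columns (2.28 ± 0.18, adjusted p = 0.000132). MRPL3, the counterpart of bacterial L3, had 89.8 and 84.4 in heart and 14.0 to 24.8 elsewhere (2.17 ± 0.18, adjusted p = 0.000189). In both genes heart stood apart from all other somatic columns, and male and female were close together.

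MRPS14, a small-subunit counterpart of a bacterial protein, had 112 and 129 FPKM in rat heart and at most 38.2 in the other somatic columns (2.05 ± 0.22, adjusted p = 0.000444). MRPS18B (2.10 ± 0.29, adjusted p = 0.00127) and MRPL16 (2.08 ± 0.24, adjusted p = 0.000612) completed the 6 largest changes. After division by column totals the log2 changes of MRPL45, MRPL3, MRPS18B, MRPL16 and MRPS14 were 0.64, 0.53, 0.45, 0.44 and 0.41 and none of these passed. At the other end MRPS34 (-0.23), MRPS33 (-0.21) and MRPS26 (-0.08), all small-subunit and mitochondria-specific, were the lowest in heart and did not pass. By role 21 of 31 large-subunit entries with a bacterial counterpart rose (median 1.21) and 11 of 18 mitochondria-specific large-subunit genes (1.08), with 6 of 14 (0.90) and 3 of 11 (0.49) in the small subunit. The difference between roles was not tested.

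**Figure D2:**
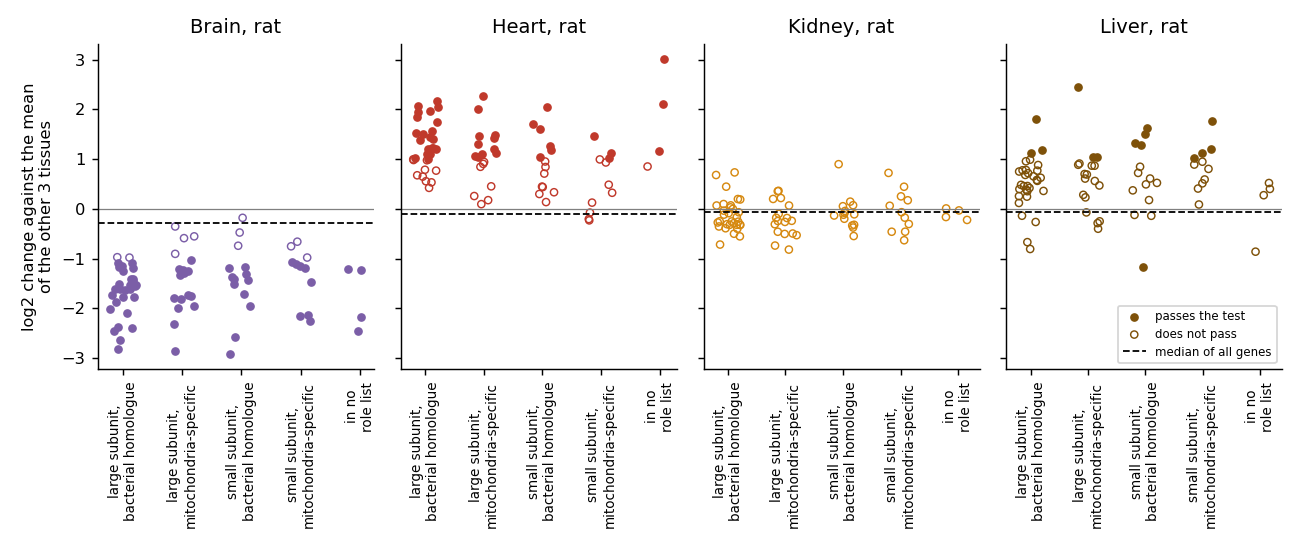
Log2 change of each of the 78 rat members in brain, heart, kidney and liver against the mean of the other 3 somatic tissues, by role; filled points pass the test, open points do not, and the dashed line is the median of all genes tested. As deposited, 66 members pass as lower in brain and 44 as higher in heart; after division by column totals 7 and 2 pass as lower and higher in brain and 1 as higher and 16 as lower in heart.

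In rat liver 66 of 78 members had a positive log2 change and 12 a negative one, against 6975 of 14560 genes positive. With the deposited FPKM 14 rose (19.6% of all genes higher) and 1 fell (19.1% lower), and after division by column totals 3 were higher (11.0% of all genes) and 5 lower (27.9%), with the member median turning from 0.59 to -0.03. The share that rose was close to that of all genes. At the adjusted p alone 36 were higher (28.6%) and 4 lower (33.4%), and for 8 members both liver columns exceeded all other somatic columns (17.4%). MRPL52 had 327 and 94.6 FPKM in male and female liver and 9.36 to 90.9 in the other somatic columns (2.46 ± 0.32, limma adjusted p = 0.000909). Liver was above all other somatic columns in both sexes, with the male far above the female. MRPL14, a large-subunit counterpart of a bacterial protein, had 129 and 69.9 FPKM in liver against 8.64 to 61.9 elsewhere (1.81 ± 0.26, adjusted p = 0.00133). MRPS34, which was among the lowest in heart, had 130 and 52.6 in liver (1.77 ± 0.25, adjusted p = 0.00117); its male kidney value of 82.2 exceeded female liver, so its columns overlapped. MRPL52, MRPL14 and MRPS34 kept their calls under every alternative run. MRPS16 (1.62, adjusted p = 0.00232), MRPS11 (1.50, adjusted p = 0.00241) and MRPS12 (1.32, adjusted p = 0.00869) followed; MRPS12 lost its call without the male liver column.

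MRPS6, a small-subunit counterpart of a bacterial protein, was the exception that fell in rat liver. It had 47.7 and 21.7 FPKM in male and female liver, 27.7 and 27.8 in brain, 153 and 140 in heart and 104 and 88.7 in kidney (-1.16 ± 0.27, limma adjusted p = 0.00943). Its liver and brain columns overlapped, and heart and kidney lay above. By role 3 of 31 and 3 of 18 large-subunit entries rose in liver, with 4 of 14 and 4 of 11 in the small subunit.

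In rat kidney no member passed in limma, against 11.9% of all genes higher and 11.1% lower, although 14 were higher after division by column totals (25.0% of all genes) and 16 lower when the brain columns were left out (13.3%). At an unadjusted p under 0.05 in limma, 2 members were higher and 8 lower, with no share of all genes to set beside them. The fit without a trend also called 0. With the adjusted p alone (16.1% of all genes higher and 19.9% lower) MRPS6 was higher (0.90 ± 0.27, adjusted p = 0.04) and MRPL51 (-0.82, adjusted p = 0.0101), MRPL45 (-0.74, adjusted p = 0.0176) and MRPL19 (-0.72, adjusted p = 0.0218) lower, each short of the fold minimum. The member median was -0.17 and that of all genes -0.07. Without the female kidney column the member median was 0.03.

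**Figure D3:**
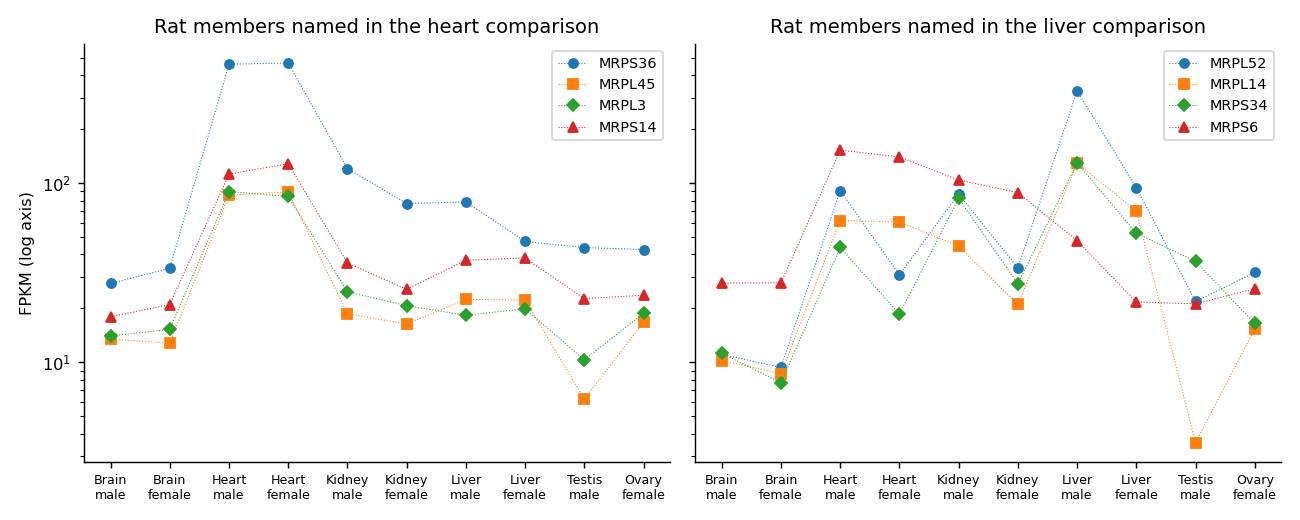
Rat FPKM by column (log axis) of MRPS36, MRPL45, MRPL3 and MRPS14, named in the heart comparison, and of MRPL52, MRPL14, MRPS34 and MRPS6, named in the liver comparison; dotted lines only join the points of a gene. MRPS36 reaches 461 and 469 in heart, and MRPL52 reaches 327 and 94.6 in male and female liver.

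The paralogues MRPS18A, MRPS18B and MRPS18C arose from a common ancestral gene and sit at different places of the ribosome, MRPS18A in the large subunit. All 3 fell in rat brain on the deposited scale, with log2 changes of -1.22, -2.46 and -1.51. They parted in the other tissues. MRPS18B had 265 and 147 FPKM in male and female rat heart and 34.1 to 105 in kidney and liver, and it rose in heart by 2.10. MRPS18C had 16.8 and 16.6 FPKM in heart and 30.6 and 25.6 in liver, and it rose in liver (1.29) with a heart change of 0.33 that did not pass. MRPS18A had 94.7 and 79.3 in heart and 71.6 and 65.2 in liver, with a heart change of 0.85 (adjusted p = 0.0173) below the fold minimum. MRPS22, a mitochondria-specific small-subunit protein, rose in heart (1.47) and fell in brain (-1.10), as did MRPL11, a counterpart of the bacterial stalk-base protein (1.11 and -2.02). MRPL44 fell in brain (-1.75), rose in liver (1.05) and had 0.94 in heart, short of the fold minimum. MRPL41 ranged from 21.6 to 69.2 FPKM over the somatic columns, fell in brain (-1.03) and had 0.26 in heart, which did not pass.

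To show which members departed from the rest, each column was also centred on its median member, a setting added after the data were seen that removes any shift shared by the set. In rat heart 8 members were then higher (6.87% of all genes): MRPS36 (2.04), MRPL45 (1.30), MRPL3 (1.20), MRPS18B (1.13), MRPL16 (1.10), MRPS14 (1.08), MRPL13 (1.08) and MRPL40 (1.03). MRPS34 (-1.21), MRPS33 (-1.18) and MRPS26 (-1.05) were lower there (53.5%). In rat liver MRPL52 (1.79), MRPL14 (1.14) and MRPS34 (1.10) were higher (11.3%), and MRPS6 (-1.83), MRPS36 (-1.53), MRPL47 (-1.48), MRPL3 (-1.34) and MRPL49 (-1.07) lower (40.9%). In rat brain MRPS16 (-1.30), MRPL52 (-1.23), MRPL12 (-1.19) and MRPL34 (-1.02) were lower than the set (5.39%), and MRPS2 (1.44), MRPL49 (1.27), MRPS5 (1.15), MRPL48 (1.07) and MRPL51 (1.03) higher (61.8%). In rat kidney none departed in either direction in limma (12.4% higher and 10.9% lower among all genes). In marmoset the columns were centred on the median of the 53 genes, the further ones included. In liver MRPL39 (-1.23), MRPS6 (-1.21) and MRPS9 (-1.11) were then lower (39.2%), where the median of the 12 members was itself -0.35. MRPS34 thus stood below the set in heart and above it in liver, and MRPS36 and MRPL3 the other way round.

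In marmoset brain 7 of the 12 members fell and none rose, against 28.8% of all genes lower, but after division by column totals 4 were higher (51.5% of all genes) and 0 lower (12.5%), with the member median turning from -1.12 to 0.43. The median of all genes was -0.34, and the member median minus it was -0.78 as deposited and -0.63 after that division. At an unadjusted p under 0.05, 9 members were lower and 0 higher; the adjusted p alone also gave 9 lower (40.2% of all genes) and 0 higher (24.1%). Both brain columns lay below all other somatic columns for 4 members (20.5%). MRPL12 had 28.1 and 14.6 FPKM in male and female brain and 49.0 to 194 in the other somatic columns, with no overlap (-2.15 ± 0.19, limma adjusted p = 0.000128). MRPL37, a mitochondria-specific large-subunit protein, had 41.8 and 33.4 in brain and 64.3 to 227 elsewhere (-1.58 ± 0.22, adjusted p = 0.00108). MRPS27, a mitochondria-specific small-subunit protein, had 4.85 and 4.51 in brain and 10.2 to 27.5 elsewhere (-1.55, adjusted p = 0.000729). These genes, like the rat ones, had every brain column below every other somatic column. MRPS25 (-1.35), MRPL4 (-1.23), MRPL38 (-1.22) and MRPL28 (-1.03) also fell. For MRPL4, MRPL28 and MRPL38 the brain columns overlapped others: MRPL4 had 12.3 FPKM in female kidney against 14.0 in female brain, and MRPL38 had 9.05 in female heart against 9.57 in male brain. Without the male brain column 4 members passed, and MRPL28 (-0.46), MRPL38 (-0.72) and MRPL4 (-0.57) did not; MRPL28 also lost its call without the male heart or male liver column.

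Marmoset heart had 5 members that rose and none that fell, against 13.1% of all genes higher, and the member median stayed positive under division by column totals (0.89 as deposited and 0.68 after it). At an unadjusted p under 0.05, 9 were higher and 0 lower; at the adjusted p alone 8 were higher (19.7% of all genes) and 0 lower (30.1%). Both heart columns exceeded all other somatic columns for 4 members (10.8%). With the brain columns left out of the comparison, 3 members were higher (13.9% of all genes) and 0 lower (22.6%). MRPL39, a mitochondria-specific large-subunit protein, had 51.9 and 60.9 FPKM in male and female heart and 15.1 to 25.2 in the other somatic columns (1.61 ± 0.21, limma adjusted p = 0.00136). MRPS9, a small-subunit counterpart of a bacterial protein, had 12.7 and 24.5 in heart and 5.50 to 7.62 elsewhere (1.37, adjusted p = 0.00251). For both genes heart lay above all other somatic columns. Both calls held under the alternatives that keep a shift shared by the set. With columns centred on the median member, no marmoset member passed as higher in heart. MRPL12 (1.39, adjusted p = 0.00143), MRPS27 (1.38, adjusted p = 0.00209) and MRPS5 (1.14, adjusted p = 0.0137) also rose. MRPL12 had 91.8 in female heart and up to 129 elsewhere, and MRPS5 had 20.2 and 55.1 in heart and 25.2 in female liver, so the columns of both overlapped. Without the female heart column the change of MRPS5 was 0.59 and did not pass.

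In marmoset liver MRPL28 (1.34 ± 0.28, limma adjusted p = 0.00732), MRPL4 (1.23, adjusted p = 0.0236), MRPL37 (1.05, adjusted p = 0.00764) and MRPL38 (1.05, adjusted p = 0.0131) rose as deposited (21.3% of all genes higher), and all 4 turned negative after division by column totals. MRPL28 had 103 and 29.1 FPKM in male and female liver, and MRPL4 188 and 28.1, so the male lay far above the female. Without the male liver column none of the 12 passed in liver, and 2 passed without the male brain or the female kidney column. In marmoset kidney MRPS5 fell (8.80 and 11.4 FPKM, -1.05 ± 0.27, adjusted p = 0.0246; 9.89% of all genes lower), and this call was lost without the male brain column, either kidney column or the female heart column. With the 41 further genes, 40 of 53 fell in brain (median -1.35), 19 rose and 2 fell in heart, and 18 rose in liver, all on the deposited scale.

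The 12 symbols shared by marmoset and rat allow a comparison of the species. MRPL12, MRPL37, MRPL28, MRPL38, MRPL4 and MRPS27 fell in brain in both, 6 of 12 (18.5% of all shared symbols), and MRPL12 and MRPL39 rose in heart in both (8.38%), all on the deposited scale. In rat MRPL4 and MRPS27 lost the brain call without the male brain column, and in heart MRPL39 lost its call without the male and MRPL12 without the female heart column. Over all left-out columns the rat brain change of MRPL4 ran from -1.69 to -1.31 and that of MRPS27 from -1.52 to -0.86. The rat heart change of MRPL12 ran from 1.76 to 2.17 and that of MRPL39 from 0.96 to 1.27. After division by column totals the brain changes of MRPL37, MRPL28, MRPL38 and MRPL4 turned positive in marmoset, those of MRPL38 and MRPS27 in rat, and the heart change of MRPL39 turned negative in rat. None of the 12 rose in liver in both (11.5% of all shared symbols). The signs matched for 12 of 12 in brain (81.3% of the 9046 symbols tested in both species) and 10 of 12 in each of heart (73.8%), kidney (68.4%) and liver (75.7%). With the further genes they matched for 52 of 52 in brain, 45 in heart, 31 in kidney and 44 in liver, so the kidney count was below the share of all symbols. Of the same 52 genes 34 fell in brain in both species, 12 rose in heart and 6 rose in liver; the share in liver was close to that of all symbols. Across the 52 genes, which are not independent, the Spearman correlation between the species was 0.178 to 0.353 for the FPKM levels in each tissue and 0.216 to 0.315 for the log2 changes; both are descriptions.

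**Figure D4:**
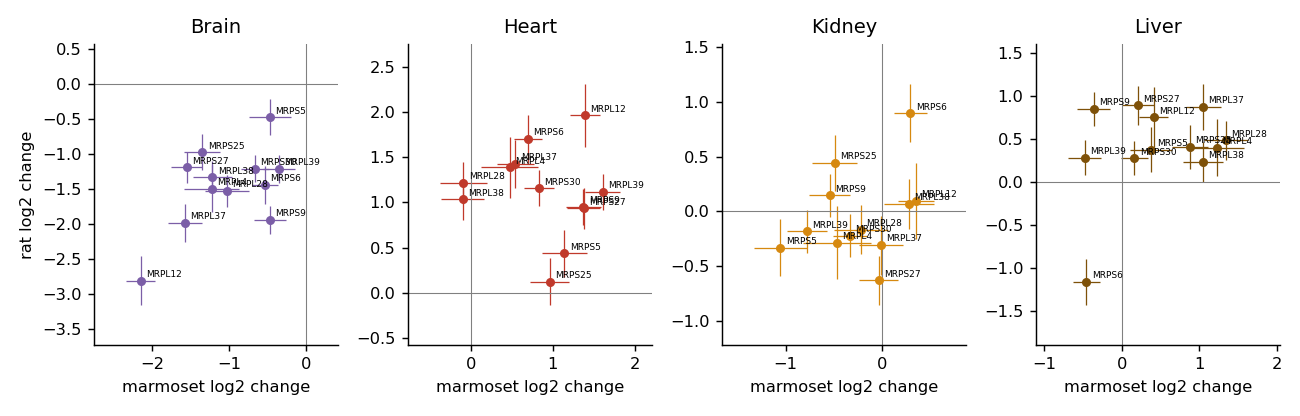
Log2 change in marmoset (x axis) against rat (y axis) for the 12 shared members in brain, heart, kidney and liver, each against the mean of the other 3 somatic tissues as deposited, with standard errors as bars. In brain all 12 points lie below 0 in both species; after division by column totals the member medians there are 0.43 in marmoset and -0.08 in rat.

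Other genes of mitochondrial translation were counted the same way, on the deposited scale and from lists that share no gene with the members. Of all rat genes tested 27.1% were lower in brain, 16.7% higher in heart and 19.6% higher in liver. The mitoribosomal proteins with other names fell in rat brain in 7 of 7 genes and rose in heart in 3 of 7. Of 15 translation factors 9 fell in rat brain, among them the elongation factors TUFM (-2.26) and GFM1 (-1.86), and 8 rose in heart (GFM1 1.58, TUFM 1.56). Mitoribosome assembly factors fell in brain in 6 of 21 and rose in heart in 4 of 21, both close to the shares of all genes. Mitochondrial aminoacyl-tRNA synthetases, which charge transfer RNAs, fell in brain in 10 of 17 and rose in heart in 3 of 17, the latter close to the share of all genes. Of 11 genes of mitochondrial transcription 4 fell in brain, including TEFM (-1.88), an elongation factor, and TFAM (-1.59). TFAM packs the mitochondrial genome and helps to start its transcription. In heart 5 of the 11 rose, including TEFM (1.70) and the coactivator PPARGC1A (1.23). Nuclear OXPHOS subunits moved further: 80 of 86 fell in rat brain (median -2.08) and 80 of 86 rose in heart (median 2.13, against 1.06 for members). Cytosolic ribosomal proteins fell in rat brain in 126 of 135 genes (-1.83) but rose in heart in 35 of 135 and in liver in 83 of 135 (1.11).

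The same lists were counted in marmoset on the deposited scale. There 28.8% of all genes tested were lower in brain, 13.1% higher in heart and 21.3% higher in liver. OXPHOS subunits fell in brain in 45 of 45 genes and rose in heart in 40 of 45. Cytosolic ribosomal proteins fell in brain in 48 of 51 and rose in heart in 1 of 51 and in liver in 33 of 51. Translation factors fell in brain in 9 of 15, with TUFM at -1.90, and rose in heart in 7 of 15; assembly factors did so in 9 and 6 of 17 and synthetases in 7 and 5 of 13. For transcription genes the counts were 4 and 1 of 9, the latter close to the share of all genes. For the proteins with other names they were 3 and 1 of 5.

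As shares of the members' summed FPKM, which the scaling of a column cannot move, the set changed its make-up between tissues. MRPL52 held 6.51% in male and 2.90% in female rat liver and 0.613% in female heart. MRPL1, a large-subunit counterpart of a bacterial protein, held 2.35% in rat testis and 0.213% to 0.557% elsewhere. MRPL28 was among the steadiest, at 0.724% to 1.07% over the 10 rat columns. The 5 highest members held 16.8% to 25.8% of the set in rat. In wallaby MRPS12 alone held 44.5% of the testis sum and 6.79% of the liver sum, and MRPL52 17.4% of the liver sum. In marmoset MRPS6 ranged from 1.90% in male liver to 24.5% in ovary. Spearman correlations of the rat members between columns, across genes, ran from 0.405 (male heart and testis) to 0.941 (male and female brain).

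Testis and ovary have 1 column each, so their values carry no test. In rat testis 9 of 78 members lay at least 1 log2 unit below every somatic column (7.13% of the genes with at least 5 FPKM in a compared column) and 0 at least 1 above (20.0%), but after division by column totals 1 lay below (1.28%) and 4 above (26.9%). MRPL49 had 3.09 FPKM in testis and 23.7 to 79.4 in the somatic columns. MRPL16 had 1.71 against at least 9.91, and MRPL14 3.56 against at least 8.64. MRPL17 had 7.66 in testis and 30.5 to 109 elsewhere, and MRPL42 3.63 and 10.4 to 101. MRPL48, MRPS26, MRPS30 and MRPS35 make up the 9, and the MRPS30 protein, despite its name, sits in the large subunit. In all 38 members lay below every somatic column (25.2%), and MRPS5 alone lay above (28.3%). The members' median difference from the somatic median was -1.37, and that of all genes -0.05.

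Marmoset testis held no member at least 1 log2 unit above or below every somatic column (9.57% and 3.5% of genes). MRPS6 was above all of them, with 57.6 FPKM in testis against 16.1 to 39.7, and it was also above them in ovary (54.0). Heart and liver markers summed to 248 and 257 in the marmoset testis column, far below the 5624 to 8573 and 49917 to 53412 of heart and liver; their part in the testis values was not tested. In ovary no member lay 1 log2 unit or more outside the somatic range in either species (1.91% above and 1.04% below in marmoset, 1.93% and 0.454% in rat). Below every somatic column were 5 of 12 members in marmoset ovary (11.5%) and 3 of 78 in rat ovary (9.37%). The median differences from the somatic median were -0.87 and -0.74.

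In the wallaby 47 of 60 members were at least 1 log2 unit lower in testis than in liver (53.6% of all genes) and 3 at least 1 higher (22.5%), with a member median of -2.01 and -1.22 for all genes; after division by column totals the counts were 13 lower (26.3%) and 13 higher (43.0%). MRPL11 had the largest drop, with 3.85 FPKM in testis and 108 in liver (-4.49), and MRPL16 had 3.04 and 58.7. Against the set stood MRPS12 with 2167 in testis and 629 in liver, MRPL47 with 170 and 47.2, and MRPL42 with 47.7 and 19.9. With 1 wallaby there is no spread to set these differences against.

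For 41 symbols in all 3 species, with the further marmoset genes included, testis was set against male liver. As deposited, testis was lower for 34 genes in marmoset (58.8% of all genes), 36 in rat (52.5%) and 38 in wallaby (68.0%), and 31 were lower in all 3 (42.1% of symbols in the 3 tables), but after division by column totals the counts were 14, 15, 23 and 4. The member medians were -1.70, -1.80 and -1.99 as deposited and 0.50, 0.46 and -0.26 after that division. Relative to all genes members lay lower on either scale: by -1.15, -1.54 and -0.78 as deposited and by -1.04, -1.41 and -0.82 after it. MRPL47, a counterpart of bacterial L29, went different ways, at -1.70 in marmoset, 1.31 in rat and 1.83 in wallaby.

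**Figure D5:**
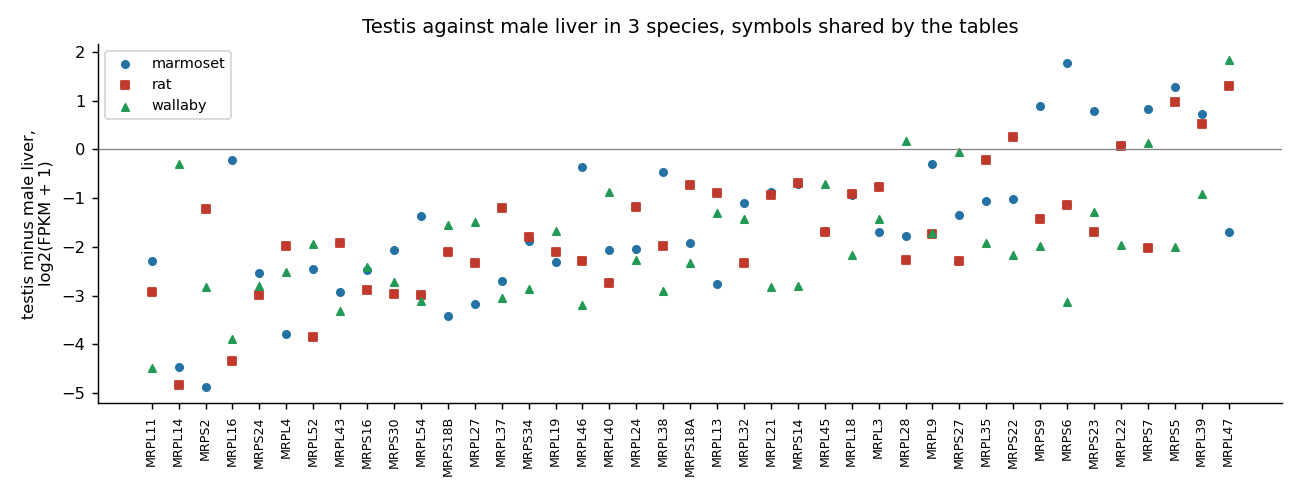
Testis minus male liver, log2(FPKM + 1) as deposited, for the 41 symbols in marmoset, rat and wallaby, 1 value a gene and species. Most points lie below 0 (34, 36 and 38 of 41), and after division by column totals 14, 15 and 23 do; MRPL47 is at 1.31 in rat and 1.83 in wallaby.

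Between the male and the female column, 3 of 12 marmoset members were at least 0.5 log2 units higher in the male in all 4 somatic tissues (12.0% of all genes) and 0 lower (1.21%). With the further genes 23 of 53 were higher in the male in all 4. MRPL4 was higher by 0.92 in brain, 1.64 in heart, 2.40 in kidney and 2.70 in liver. MRPL28 was higher by 0.57, 1.88, 1.46 and 1.79, and MRPL12 by 0.90, 1.07, 1.15 and 1.38. In rat only MRPS11 of 78 did so (1.46%), by 0.58, 0.75, 1.59 and 1.25, and 0 were lower in all 4 (0.453%). The rat member medians were 0.06, 0.23, 0.54 and 0.36 in brain, heart, kidney and liver. With 1 animal a sex there is no test.

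Over the 8 somatic rat columns the genes whose log2 profile was most like the mean of the members were FH, the fumarase of the citric acid cycle (Pearson r = 0.995), MECR, of mitochondrial fatty acid synthesis (0.994), and ACADS, of fatty acid oxidation (0.991), with GFM1 at 0.988 among the 10 closest. In marmoset, with the mean taken over the 53 genes, they were IBA57, of iron-sulphur cluster assembly (0.996), FBXO6 (0.993), RPAP1 (0.992) and the succinate dehydrogenase subunits SDHA (0.991) and SDHB (0.989). These are descriptions over 8 columns that share 4 tissues and 2 animals. Among the rat members MRPS28 (0.333), MRPS2 (0.492) and MRPL49 (0.546) followed the members' mean least.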

How the data were processed

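The FPKM values were made and deposited by the authors, with 1 table a species, and were normalized over tissues by them; how is not given in the sources used here, nor is the genome build. TopHat 1.4.0 and Cufflinks 2.0.0 are named, per the submitters' processing notes. The depth is unknown, and no interval that needs it is given. Another 8 columns of per-sample values, all without values, were not used.

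Columns were matched to samples by name. A gene was tested if 2 or more of the 8 somatic columns reached 1 FPKM, on log2(FPKM + 1), on which a fold change understates the change of low genes, with limma 3.58.1 in R 4.3.3 (trend, animal as block). The labels give 1 animal a sex; male and female deviations correlated between tissues by 0.54 to 0.72 in marmoset and 0.14 to 0.51 in rat, so the block was used. The fit was tested on simulated data. Single columns and sexes were compared as values. Python 3.11.15, pandas 2.3.3 and scipy 1.17.1 did the rest.

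Members named are the 5 highest and 5 lowest by mean level, up to 6 with the largest passing changes per tissue, those passing in both species, those counted in single-column comparisons, those with the most and least variable shares, and MRPL12, MRPS12, MRPL3, MRPL11, MRPS16, MRPS22, MRPL44, MRPL45, MRPS36, MRPS18A, MRPS18B, MRPS18C and MRPL41. The members and lists were chosen with earlier results of these data known. Alternatives were the pseudocount, the filter, the trend, the call rule, the block, the scaling, the brain columns and leaving out each column. Sequences and promoters were not used here.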

Additional observations from a re-analysis of the deposited data

How the results depend on the processing

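Scaling mattered most. With each column divided by its total, 4 marmoset members passed in brain, 0 in kidney and 7 in liver, and in rat 9 passed in brain, 17 in heart, 14 in kidney and 8 in liver. The same division gave 1 member in marmoset ovary, 5 in rat testis, 3 in rat ovary and 26 in wallaby, and it shifted the median of all genes by up to 1.41 on the log2 scale (marmoset brain). It turned the member median to 0.43 in marmoset brain, 0.0065 in marmoset kidney, -1.23 in marmoset liver, -0.53 in rat heart, 0.66 in rat kidney (0.12 relative to all genes) and -0.034 in rat liver. Single members turned too: in marmoset brain MRPL28 (0.53), MRPL37 (0.0068), MRPL38 (0.29), MRPL4 (0.34) and MRPS25 (0.21), in marmoset liver MRPL28 (-0.28), MRPL37 (-0.61), MRPL38 (-0.54) and MRPL4 (-0.41), in rat brain MRPL38 (0.054) and MRPS27 (0.14), and in rat heart MRPL39 (-0.47). Centring on genes of at least 10 FPKM in every column, chosen after seeing the data, left 1 member in marmoset brain, 0 in marmoset liver (median -0.079), and 19, 23 and 8 in rat brain, heart and liver. Centring on the median gene left 2 in marmoset liver. The counts from centring pool both directions and are given without a share of all genes. The cause of the changes between scalings was not tested.

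Without the replicate block, marmoset gave 4 members in brain, 3 in heart, 0 in kidney and 0 in liver, and rat 65, 40, 0 and 12. Those counts pool both directions and are given without a share of all genes. By adjusted p alone 8 members were higher in marmoset heart (19.7% of all genes) and 2 lower in marmoset kidney (2547 of 15100 genes). In rat kidney 1 was higher and 3 lower (16.1% and 19.9%), and in rat liver 36 and 4 (28.6% and 33.4%). With the brain columns left out the counts were 3 in marmoset heart, 3 in marmoset kidney, 1 in marmoset liver, and 22, 16 and 8 in rat heart, kidney and liver. A pseudocount of 5 left 0 in marmoset kidney, and 0.1 gave 1 in marmoset testis. With higher and lower counted together, a threshold of 0 gave 10 members in marmoset and 34 in rat for sex. A threshold of 2 left 2 in rat testis and 30 in wallaby. Leaving out each column in turn gave 4 to 7 (brain), 4 to 6 (heart), 0 to 1 (kidney) and 0 to 4 (liver) in marmoset, and 56 to 68, 27 to 50, 0 to 1 and 10 to 20 in rat; the rat kidney median ran from -0.35 to 0.031 (-0.19 to 0.092 relative to all genes), the upper end without the female kidney column. The other filters and the fit without a trend changed no direction and moved no count of members by over 1.5 times. Depth is unknown, so its limit on low members such as MRPS28 cannot be given.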
